A study of Mus musculus with 9 samples.

Results

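The Igf2-H19-Tspan32 neighbourhood is a cluster of imprinted genes on distal mouse chromosome 7. It was described here by 8 of the 37310 genes in the annotation, namely H19, Igf2, Ins2, Th, Ascl2, Tspan32, Cd81 and Cdkn1c. Every H3K27ac island was kept that touched their joint span or the 100 kb on either side, which is chr7:149661434-150746955 in the mm9 build, or 1086 kb with 28 annotated genes. These islands merged into 44 of the 76633 regions found genome-wide. The locus was chosen by its island counts and widths, which differed between the genotypes, so those values are given as a description and no test was made of them.

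H3K27ac marks active enhancers and promoters. ChIP-seq was used to map it in mouse naive CD8+ T cells, sorted from the spleen as GFP+ TCRβ+ CD8+ CD62L+ cells with low to medium CD44. WT cells carried the hCD2-Cre transgene and the Rosa26 GFP reporter with intact Tcf7 and Lef1 (4 samples). dKO cells carried the same Cre and reporter with Tcf7 fl/fl and Lef1 fl/fl alleles and so lacked the transcription factors Tcf1 and Lef1 (3 samples). The Cre transgene acts mainly once T cells have matured. Mice of both sexes, aged 6 to 12 weeks, were used, and the sex and age behind each sample were not given in the sources used here. Each genotype also had 1 input sample, which gave 9 samples in all. The replicates of a genotype were pooled before islands were called, so each value below is 1 number per genotype with no replicate spread and no p-value, and every interval is a 95% Wilson interval that covers counting error only.

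In all, 65563 islands with 82668007 counts were listed for WT and 82213 with 57665047 counts for dKO. Counts were scaled to a list total of 1000000 and are given as CPM. Over the Tcf7 gene the islands held 606 CPM in WT and 360 CPM in dKO, and over Lef1 they held 667 and 502 CPM. Where the deleted exons lie was not used here, so these values do not check the genotype. All 8 markers of naive CD8+ T cells had promoter islands in both lists, but so did 4 of 5 B cell and 5 of 5 myeloid markers, so promoter islands did not separate the sorted cells from those lineages. The B cell markers had a median log2 ratio of 0.64 (dKO to WT), which was 0.00 per covered kb, with 3 of 5 at least 1.5 times higher in dKO, and the myeloid markers had medians of -0.08 and 0.00. The naive CD8+ markers had medians of -0.44 and -0.24, with 1 of 8 at least 1.5 times higher in dKO (Cd3e, log2 ratio 1.39) and 4 in WT. Of all protein-coding genes with counts in both lists, 14.6% were that much higher in dKO and 14.7% in WT. Islands were counted whole, so these values depend on where islands split. At Cd3e the dKO island of 12395 counts was also that of Cd3d, whose WT island of 13506 counts was left out. Cd8a and Cd8b1 shared a WT island of 29951 counts, set against dKO islands summing to 8417 and 9033 counts. The calls at these genes were therefore not read as changes. The part of other cells in the results below was not tested.

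Imprinted genes are expressed from only the maternal or only the paternal chromosome. In this cluster a control region upstream of H19, methylated on the paternal chromosome, is bound by the insulator protein CTCF on the maternal one, where Igf2 is then cut off from enhancers beyond H19. A separate control region inside Kcnq1 holds the promoter of the noncoding RNA Kcnq1ot1, which is transcribed from the paternal chromosome and silences neighbours such as Cdkn1c, Kcnq1 and Phlda2 there, while Ascl2, Tspan32 and Cd81 are known for imprinting in the placenta. Island counts do not separate the parental chromosomes.

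Both lists held islands at Tspan32 and Cd81, and the dKO list held further islands in many places, above all between Ins2 and Th. The window held 21 WT islands with 27817 counts over 126 kb and 46 dKO islands with 31270 counts over 241 kb. Scaled to the lists, this was 336 CPM in WT and 542 CPM in dKO, a log2 ratio of 0.69 (0.67 to 0.71). Per covered kb the direction turned, with a log2 ratio of -0.24, since the dKO islands covered more ground at a lower depth (220 counts per kb in WT and 130 in dKO, unscaled). The 17 regions with islands in both lists held 27264 WT and 19417 dKO counts, a log2 ratio of 0.03 (0.00 to 0.06).

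The surplus was therefore in islands of the dKO list alone. Of the 44 regions, 17 had islands in both lists (38.6%), 2 in WT alone (4.55%) and 25 in dKO alone (56.8%). Genome-wide 28.1% of regions were in dKO alone and 12.8% in WT alone, and on chromosome 7 the shares were 24.6% and 13.4%. The 25 dKO regions held 11853 counts, or 37.9% of the dKO counts in the window, and ranged from 104 to 3042 counts with a median of 246.

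**Figure D1:**
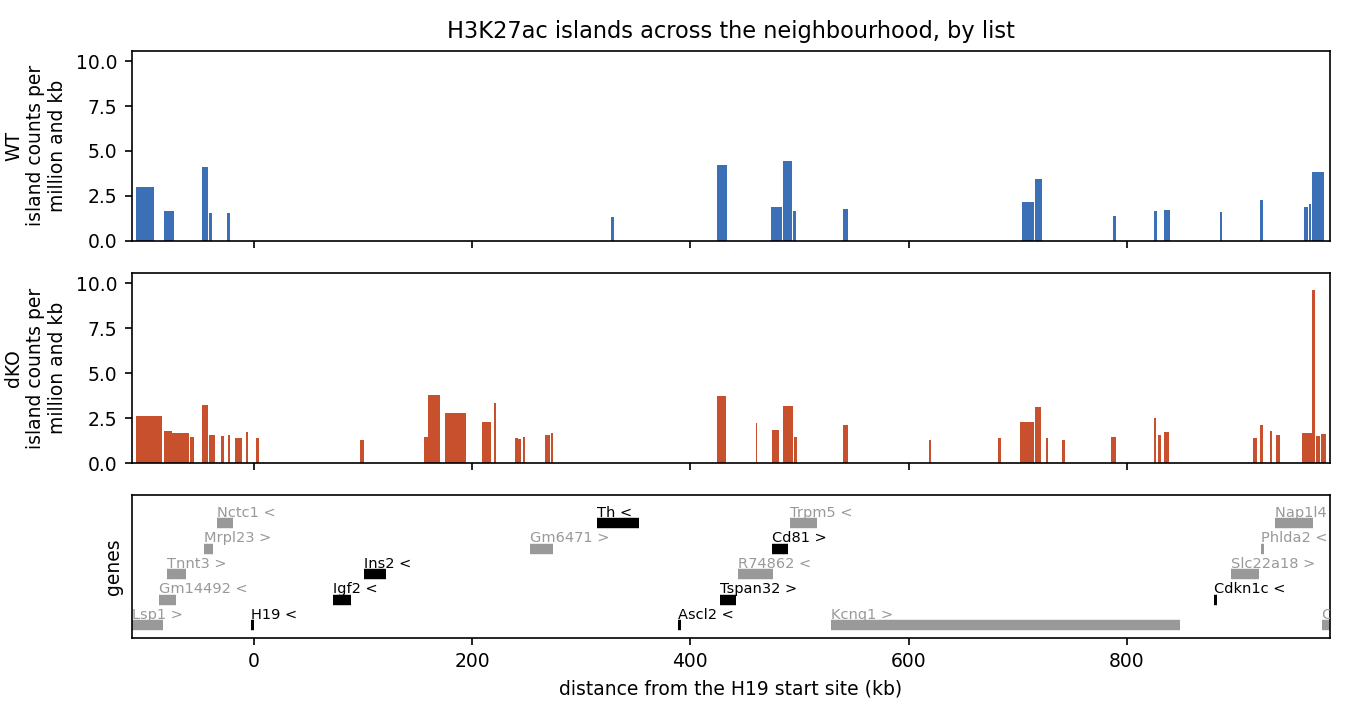
H3K27ac islands of the WT list (top) and the dKO list (middle) as bars of their width, the narrowest drawn slightly wider to stay visible, with CPM per kb on the y axis and the distance from the H19 start site in kb on the x axis; genes lie below, the 8 members in black, with > or < for the strand. Before Th, 14 dKO islands stand in a stretch around H19, Igf2 and Ins2 with 0 WT islands, while Tspan32, Cd81 and Kcnq1 have islands in both lists, with 6 in WT and 11 in dKO over Kcnq1.

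H19, a maternally expressed noncoding RNA on the minus strand (ENSMUSG00000000031.9, chr7:149761434-149764048), had no island over its body or within 1 kb in either list. The nearest WT island lay 19843 bp from its nearest start site and held 361 counts. In dKO, an island of 3 kb with 246 counts (4.27 CPM, 82 counts per kb) began 1753 bp upstream of the H19 start, at chr7:149765801-149768800. WT had no island there. This dKO island held all 4 matches in the whole window to a CTCF core, searched on both strands as CCGCNNGG and GGNGGCAG sharing their GG. The matches are shown because they mark where the island lies, from 2166 to 3904 bp upstream of the H19 start site, on the minus strand of mm9, with the core in capitals and 13 bases on each side.
CTCF match 1, chr7:149766201-149766240: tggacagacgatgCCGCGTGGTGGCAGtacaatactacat
CTCF match 2, chr7:149766656-149766695: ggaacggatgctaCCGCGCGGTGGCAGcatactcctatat
CTCF match 3, chr7:149767682-149767721: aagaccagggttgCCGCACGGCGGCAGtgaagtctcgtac
CTCF match 4, chr7:149767926-149767965: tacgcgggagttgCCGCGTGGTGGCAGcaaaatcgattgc

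The motif letters were chosen with the CTCF sites of this control region in mind, so its matches there are a description and say nothing of binding in these cells. The genome held 532 such matches, 0.208 per Mb. Of the 41855 dKO islands of at most 3 kb, 28 held a match (0.0669%) and this was the only 1 with at least 4. Of the 27641 WT islands of that size, 30 held a match and 0 held 4.

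Downstream of H19, the 34.8 kb to the end of Mrpl23 holds the noncoding gene Nctc1. It had 1 WT island with 361 counts and 5 dKO islands with 1613 counts, with a log2 ratio by counts of 2.68 (2.51 to 2.84) and of -0.04 per covered kb. The dKO sum includes an island of 439 counts that crosses the end of Mrpl23. Its WT counterpart of 284 counts ends before that border and is left out, which raises the ratio. The 2 dKO islands closest to H19 on that side held 141 counts over 1.4 kb and 557 counts over 6.8 kb. These are sums over islands called separately, and WT has no value on the ground of the dKO-only islands.

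Igf2, the fetal growth factor (chr7:149836673-149852721, minus strand), had no island over its body in either list. The nearest dKO island lay 8480 bp from an Igf2 start site, and the nearest WT island 100771 bp away. The microRNAs Mir483, inside Igf2, and Mir675, inside H19, also had no island. Ins2, an insulin gene (chr7:149864561-149885415, minus strand), had 0 islands in WT and 1 in dKO, at chr7:149861201-149865400, with 310 counts over 4.2 kb (5.38 CPM) and its edge 38 bp from the nearest Ins2 start site. Ins2 was thus the only member of the 8 with a promoter island in dKO alone, a state found in 2.68% of the 22367 protein-coding genes examined. With promoters taken as 2 kb either side, H19 was in that state too.

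The largest block of dKO signal lay in the 193 kb between Ins2 and Th. WT had 0 islands there, whereas dKO had 10 with 8082 counts over 55 kb (140 CPM), which was 25.8% of all dKO counts in the window. Of those counts, 67.4% were in 2 islands. The island at chr7:149939201-149958000 was 18.8 kb wide, held 3042 counts and covered the pseudogene Gm7290. The island at chr7:149923801-149934800 was 11 kb wide and held 2408 counts. By counts these ranked 9 and 12 among the 21511 dKO regions with no WT island. The locus was chosen by such counts, which also grow with width, so the ranks are a description only. A further island of 7.8 kb at chr7:149973401-149981200 held 1016 counts (rank 125), and the other 7 held between 155 and 360. Gm6471, annotated as a protein-coding gene model, had dKO islands of 360 and 155 counts and none in WT. They lay near the inner of its 2 start sites, at chr7:150035449.

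The stretch without any WT island ran for 349 kb, from chr7:149742601 to chr7:150091600, and held 14 dKO islands with 9336 counts. Among the 64496 stretches between neighbouring WT islands on the autosomes, it ranked 4 by dKO counts, and the first held 16372. This rank too is a description, since longer stretches can hold more counts and the locus was chosen by its counts. The window's log2 ratio was 0.26 (0.23 to 0.28) without the 10 islands between Ins2 and Th, an alternative chosen after seeing the data.

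**Figure D2:**
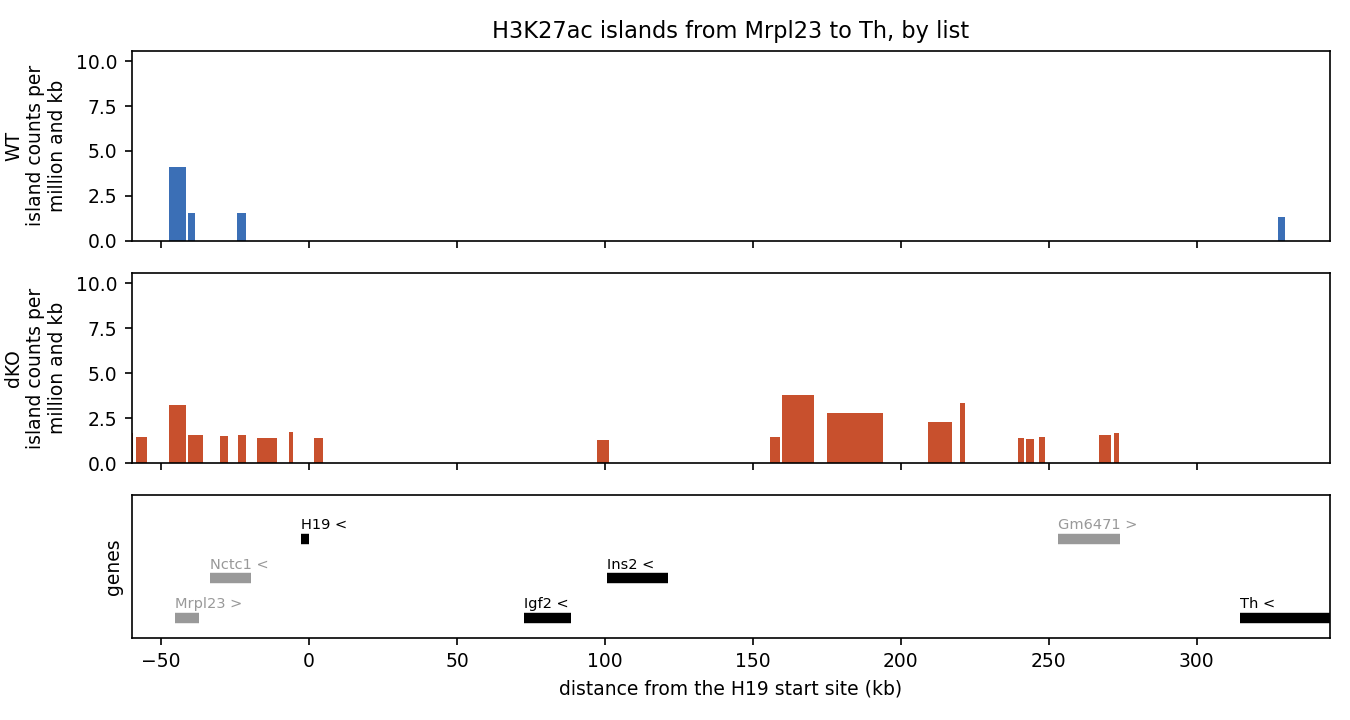
The same bars enlarged from Mrpl23 to Th (y axis, CPM per kb; x axis, distance from the H19 start site in kb). The island beside H19 and the one at Ins2 are low, and the islands of 11 and 18.8 kb between Ins2 and Th stand at 3.80 and 2.81 CPM per kb, with no WT bar above them.

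A region with no island has no count, so depth decides what could have been called. Scaled to the WT total, the 25 dKO-only islands would have had between 105 and 314 counts per kb, with a median of 118. Among WT islands of at least 1 kb the lowest had 82.3 counts per kb, the 1st percentile was 98.8 and the median 141. All 25 lay above that 1st percentile, as did 97.2% of all dKO-only regions, and 7 of 25 (28%) lay above the median, against 24.3% of all, so the 25 were near the background on both counts. In CPM per kb the 1st percentile was 1.19 in both lists, so nearly any called dKO island passes the WT one. Passing it therefore does not show that WT could have called these islands. The island upstream of H19 was at 118 counts per kb at the WT total, close to the median of the 25, while the 2 fullest islands between Ins2 and Th reached 232 and 314 counts per kb at the WT total. Signal in WT below the calling limit is not in the lists, so a ratio for these islands was not computed.

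**Figure D3:**
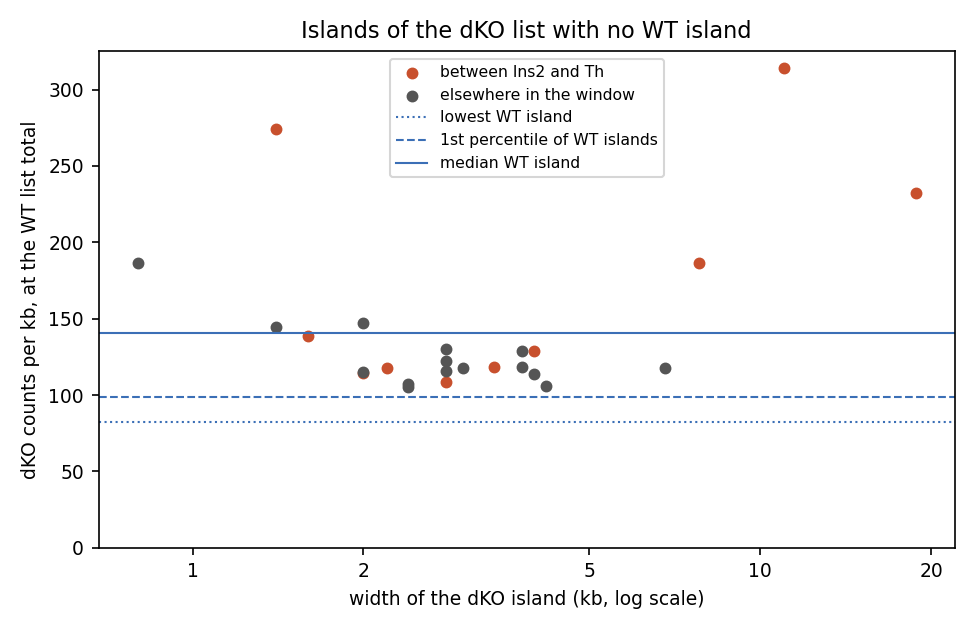
The 25 dKO islands without a WT island, by width (x axis, kb, log scale) and by counts per kb scaled to the WT list total (y axis), with blue lines for the lowest, the 1st percentile and the median of WT islands of at least 1 kb (82.3, 98.8 and 141). Most points lie between 105 and 150, and the 3 widest islands between Ins2 and Th lie at 187 to 314.

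Th, the rate-limiting enzyme of catecholamine synthesis (chr7:150078657-150117033, minus strand), was the reverse case. WT had an island of 2.2 kb with 236 counts at chr7:150091601-150093800, in an intron of its longest transcript and 5682 bp from the nearest start site. dKO had none over the gene, the nearest being 44714 bp from a Th start site. Cdkn1c, the maternally expressed cell cycle inhibitor p57 (chr7:150644255-150646955, minus strand), had no island over its body. A WT island of 2.4 kb with 317 counts lay 2246 bp upstream, at chr7:150649201-150651600, and the nearest dKO island lay 32846 bp away. These were the only 2 regions of the window in WT alone. At 107 and 132 counts per kb, they lay between the 1st percentile (98.8) and the median (141) of WT islands of at least 1 kb. Scaled to the dKO total they would have had 74.8 and 92.1 counts per kb, where the dKO 1st percentile was 68.7. Ascl2, a basic helix-loop-helix factor of trophoblast and intestinal stem cells (chr7:150152727-150155169), had none in either list, and its nearest island in both was that of Tspan32, 33632 bp away.

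Tspan32 and Cd81 encode tetraspanins, membrane proteins that organise receptors at the surface of lymphocytes, and were the 2 members with promoter islands in both lists. Tspan32 (chr7:150190951-150205549, plus strand) had 1 island in each. WT held 3059 counts over 8.8 kb (37.0 CPM) and dKO 1765 counts over 8.2 kb (30.6 CPM). The log2 ratio was -0.27 (-0.36 to -0.19) and -0.17 per covered kb. The island also covers the start of the antisense gene Gm15024, and ChIP reads do not tell them apart.

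Cd81, part of the B cell coreceptor and also present on T cells (chr7:150238644-150253839, plus strand), had 2 islands in each list. WT held 4483 counts over 18 kb (54.2 CPM) and dKO 2373 counts over 15.8 kb (41.2 CPM), at a log2 ratio of -0.40 (-0.47 to -0.33) and -0.21 per covered kb. Its promoter region gave the larger part of this. There WT had 1605 counts over 10.2 kb and dKO 691 counts over 6.6 kb, at a log2 ratio of -0.70 (-0.82 to -0.57), but -0.07 per covered kb. The noncoding gene R74862 shares that promoter. The region at the 3′ end held 3337 and 1920 counts, a log2 ratio of -0.28 (-0.36 to -0.20) and -0.38 per covered kb. It is shared with the start of Tssc4 and an internal start of the channel gene Trpm5. The RefSeq promoter of Trpm5 lay under no island of either list. Both tetraspanins were thus below 0 on both scales, where the median over all protein-coding genes was -0.08 by counts and -0.17 per covered kb. Per covered kb, Tspan32 at -0.17 was at that median and Cd81 at -0.21 was near it. Neither passed a ratio of 1.5 over the whole gene, as 14.7% of genes with counts in both lists did towards WT and 14.6% towards dKO.

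The promoters of these genes are shown because they are the only member promoters of the RefSeq table under an island of either list. Both are on the plus strand of mm9, end just before the first annotated start site and have CpG pairs in capitals. The table's GRCm38.p6 sequences were matched base for base to mm9.
Tspan32 promoter, chr7:150190701-150190950: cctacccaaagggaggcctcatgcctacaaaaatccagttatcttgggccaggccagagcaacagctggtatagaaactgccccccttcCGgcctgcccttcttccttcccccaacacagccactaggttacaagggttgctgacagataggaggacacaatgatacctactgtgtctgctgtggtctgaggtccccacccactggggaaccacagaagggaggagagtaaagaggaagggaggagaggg
Cd81 promoter, chr7:150238405-150238643: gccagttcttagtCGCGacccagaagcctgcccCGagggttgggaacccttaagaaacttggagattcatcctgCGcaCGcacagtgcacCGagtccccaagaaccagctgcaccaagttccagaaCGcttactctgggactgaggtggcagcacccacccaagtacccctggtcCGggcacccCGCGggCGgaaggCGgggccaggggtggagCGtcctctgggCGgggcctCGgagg

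The Tspan32 stretch of 250 bases holds 1 CpG and the Cd81 stretch of 239 bases holds 15. The Tspan32 promoter lay under the islands of both lists. The Cd81 stretch lay under the WT island, whereas the dKO island began past it, at chr7:150238801. Neither promoter of 300 bases held the Tcf/Lef core, searched as CCTTTGA and GCTTTGA on both strands, which 8.84% of the 32841 promoters of that length held. Of the other member promoters in the table, that of Th held 1 match and those of Igf2 (4 start sites) and Ascl2 held none. Across the window the core occurred 386 times, or 356 per Mb against 379 in the genome. The regions in dKO alone held 0.41 matches per kb and those in both lists 0.38.

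**Figure D4:**
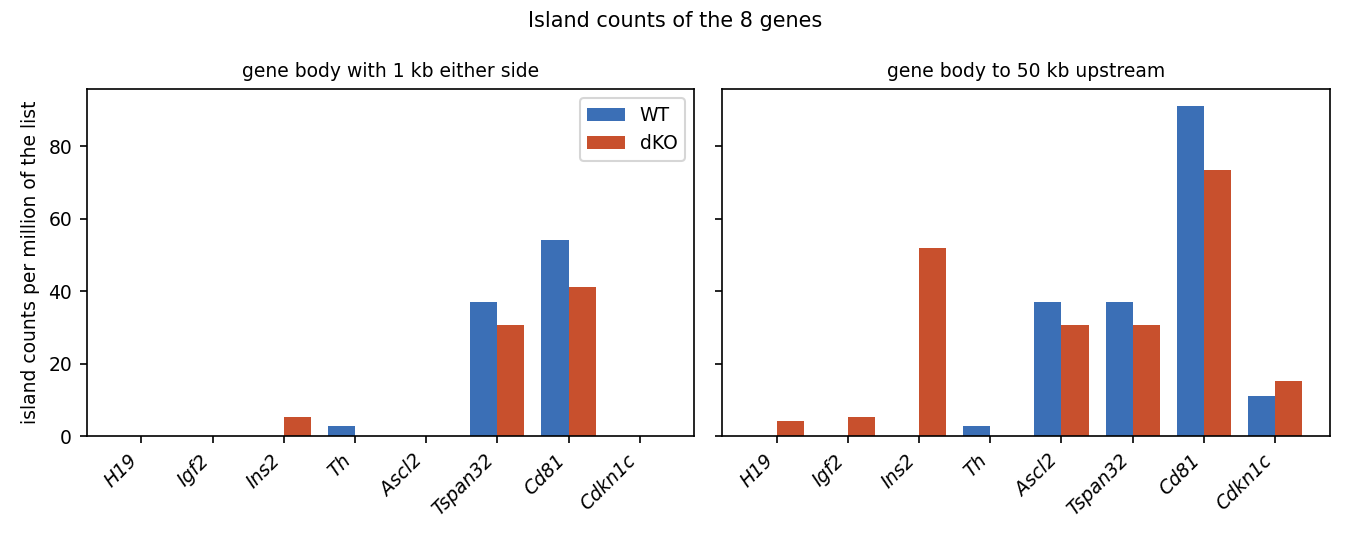
Island CPM of the 8 genes in WT (blue) and dKO (orange), over the gene with 1 kb either side (left) and from the gene to 50 kb upstream (right). Over the genes, only Tspan32 (37.0 and 30.6) and Cd81 (54.2 and 41.2) have bars in both lists, Ins2 has one in dKO alone and Th in WT alone; on the right, Ascl2 takes in the Tspan32 island.

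Of the 17 regions with islands in both lists, 10 were lower in dKO, which was also the direction of 56.6% of all such regions. Per covered kb 9 were lower, with 53.4% genome-wide. Their median log2 ratio was -0.19 by counts and -0.07 per covered kb, against -0.07 and -0.02 over all regions. The counting interval of 1 of the 17 ratios held 0. Such intervals narrow as counts rise, and the share over all shared regions was not computed. That count is therefore a description only.

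A ratio of at least 1.5 towards dKO was reached by 2 of the 17 regions and towards WT by 2, where 11.1% and 14.6% of all shared regions reached it. The 2 higher in dKO lie between Lsp1 and H19. The region over Tnnt3, a troponin of fast muscle, and Gm14492 held 1299 WT and 2197 dKO counts, a log2 ratio of 1.28 (1.18 to 1.38), and 0.02 per covered kb. The region in Mrpl23, a mitochondrial ribosome gene, held 284 and 439 counts, a log2 ratio of 1.15 (0.93 to 1.36), and 0.02 per covered kb. In both regions the dKO islands were wider at the same scaled depth.

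The 2 regions higher in WT were the Cd81 promoter and an intron of Kcnq1. The latter held 463 WT counts over 3.4 kb and 173 dKO counts over 1.2 kb, at a log2 ratio of -0.90 (-1.15 to -0.65). Per covered kb it turned to 0.60, the only 1 of the 17 regions past 1.5 towards dKO on that scale, which 1.17% of all shared regions passed. None of the 17 passed it towards WT, which 4.51% did.

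**Figure D5:**
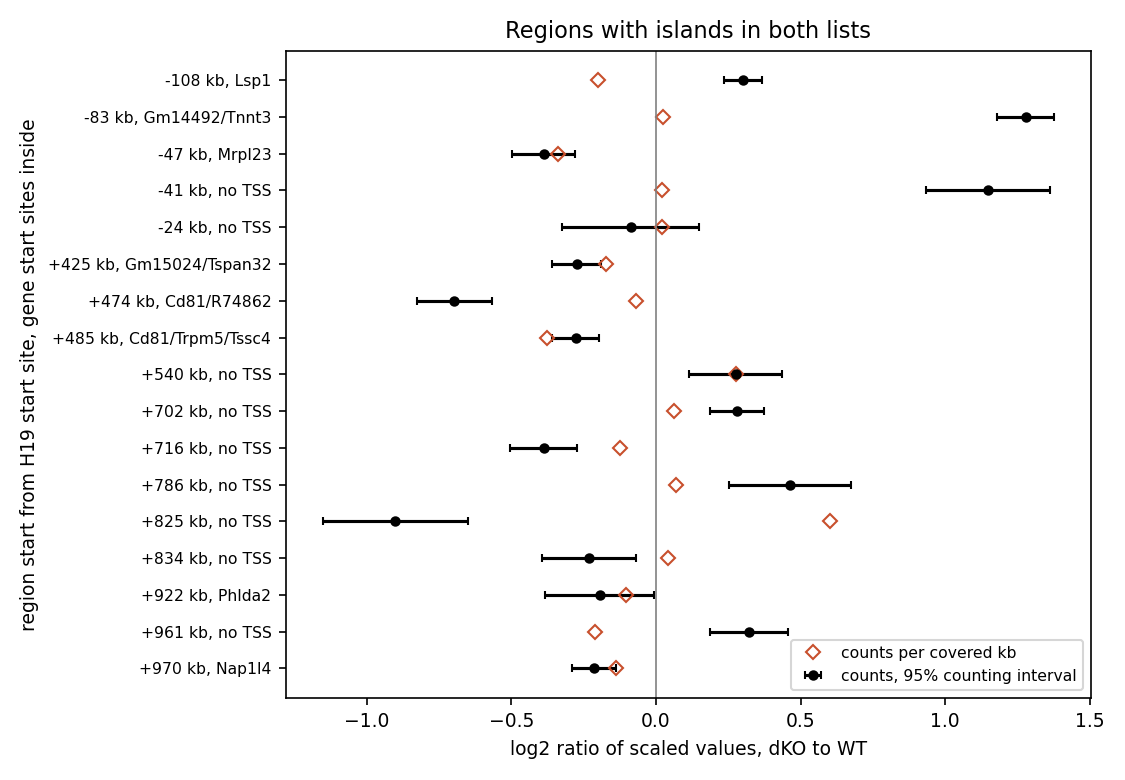
Log2 ratio of dKO to WT (x axis) for the 17 shared regions, ordered by the distance of their start from the H19 start site and labelled with the gene start sites they hold (y axis); black points are scaled counts with 95% counting intervals, and open orange diamonds are scaled counts per covered kb. By counts the points spread from -0.90 to 1.28, and per covered kb the diamonds lie between -0.38 and 0.60.

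The regions with the most counts, apart from those at Tspan32 and Cd81, lay at the borders and in Kcnq1. The first, across its left border inside Lsp1, which encodes a leukocyte actin-binding protein, held 4171 WT and 3585 dKO counts, a log2 ratio of 0.30 (0.24 to 0.37). The last, over the start of the histone chaperone gene Nap1l4, held 3666 and 2206 counts, a log2 ratio of -0.21 (-0.29 to -0.14). Just outside the window, WT islands of 4468 and 2847 counts and dKO islands of 3193 and 465 counts came next, with the 4468 and 3193 over the first Lsp1 start site. The gene Cars crosses the right border and had promoter islands in both lists. Its islands, some beyond the border, held 6513 WT and 3064 dKO counts, a log2 ratio of -0.57 (-0.63 to -0.51). Per covered kb it was -0.60, past 1.5 towards WT, as were 14.6% of genes with counts in both lists. The start of Mrpl23 held 1972 and 1051 counts, a log2 ratio of -0.39 (-0.50 to -0.28).

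Among the other imprinted genes of the cluster, Kcnq1ot1 and Phlda2 had promoter islands in both lists, whereas Kcnq1 and the transporter gene Slc22a18 had none in either. Over its body Kcnq1, a potassium channel gene of 320 kb, had 6 WT islands with 5984 counts and 11 dKO islands with 5147 counts, a log2 ratio of 0.30 (0.25 to 0.36) and -0.10 per covered kb. The promoter of Kcnq1ot1 lay in an island of both lists, at chr7:150480001-150486000. That region held 1700 and 906 counts, a log2 ratio of -0.39 (-0.50 to -0.27). The neighbouring region, fuller in both lists together, held 1978 and 1675 counts, a log2 ratio of 0.28 (0.19 to 0.37). Phlda2, a growth-restricting gene of the placenta, held 594 and 362 counts at its start, a log2 ratio of -0.19 (-0.38 to -0.01). From Tspan32 to the window's end the islands summed to a log2 ratio of 0.03 (-0.0026 to 0.06), and the counting interval held 0.

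Imprinted genes elsewhere gave a background for the promoter states. Of the 8 members, 2 had a promoter island in both lists (25%), 1 in dKO alone, 0 in WT alone and 5 in neither. Of 38 imprinted genes outside the cluster, 17 had one in both lists (44.7%), 2 in dKO alone, 0 in WT alone and 19 in neither, against 60.6%, 2.68%, 2.33% and 34.4% of all protein-coding genes. Over the 19 with counts in both, the median log2 ratio was -0.13, with 2 at least 1.5 times higher in dKO and 5 in WT. The shares over all protein-coding genes with counts in both lists were 14.6% and 14.7%. Nnat and Blcap shared a WT island of 3747 counts, so the listed genes are not all separate. Mest had the highest ratio, with 172 WT and 971 dKO counts (log2 ratio 3.02, -0.01 per covered kb). Plagl1 had the lowest, with 572 and 99 counts (log2 ratio -2.01, 0.19 per covered kb). Both genes differed mainly in the ground covered.

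Among 29 other tetraspanins, 22 had promoter islands in both lists, and 22 had counts in both, at a median log2 ratio of 0.08. This was -0.07 per covered kb and -0.0021 with 50 kb upstream, so its sign turned with the measure. By counts, 6 of the 22 were at least 1.5 times higher in dKO and 4 in WT. Over all protein-coding genes with counts in both lists, 14.6% and 14.7% were. Tspan32 at -0.27 and Cd81 at -0.40 passed neither limit. Cdkn1a and Cdkn1b, the Cip/Kip relatives of Cdkn1c, both had promoter islands in both lists, with log2 ratios of 0.88 and -1.06 by counts and of 0.33 and 0.41 per covered kb, so the direction of Cdkn1b turned with the measure. Of 10 IGF and insulin pathway genes, 7 had promoter islands in both lists and 3 in neither, and Igf1 and Ins1, like Igf2, had no island at all.

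Chromatin interaction hubs listed by the study were used by position only. The list used holds hubs linked to genes and need not hold every hub. None of those listed overlapped the window, and the nearest on either side were both dKO-specific and lay 61.4 kb before it and 83.0 kb after it, with log2 count ratios of 0.06 (0.04 to 0.09) and 0.25 (0.22 to 0.29).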

How the data were processed

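H3K27ac ChIP-seq reads were aligned to mm9 by the authors with Bowtie2 2.2.5 after FastQC, kept at a mapping quality above 10, pooled by genotype and called into islands with SICER 1.1 (window 200 bp, gap 400 bp, FDR 0.01), per the study's methods and the submitters' processing notes. The deposited lists give whole-number read counts per island, not scaled for depth or width, so a wider island holds more counts and ground outside islands has no value. Whether duplicates were removed is not given in the sources used here.

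Islands sharing at least 1 bp were merged into regions. Ratios are log2 of dKO to WT counts over the list totals, also per covered kb, with Wilson intervals (statsmodels 0.14.6, Python 3.11.15). A ratio of 1.5 was called higher. Promoters were 1 kb either side of GENCODE vM1 start sites, and genes were their bodies with 1 kb either side. An island touching a gene or stretch was counted whole, so its counts can come from ground outside and can be shared by neighbours. Promoter sequences came from RefSeq. The input samples carried no values. Steps were checked on simulated data.

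The members and gene lists were chosen with earlier results of these data known. Named were the 8 members, window genes with a promoter island, the 5 regions with most counts, regions past 1.5 with at least 200 counts and the 3 fullest islands of 1 list alone. Other genes (Nctc1, Mir483, Mir675, Kcnq1, Kcnq1ot1, Slc22a18 and single list genes) were named after their values were seen. Flank width, island width, joining, overlap, scaling, measure, ratio and promoter width were varied.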

Additional observations from a re-analysis of the deposited data

How the results depend on the processing

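Of 74 alternative values over 21 results, 44 moved by less than the counting interval or the 1.5-fold limit used for counts, 26 moved further and 4 changed sign. No paired analysis was possible because replicates were pooled before islands were called, so no column carries a replicate number, and no replicate could be left out. The flank mattered: with 0 kb the window held 11 WT and 28 dKO islands and a log2 ratio of 0.88, with 50 kb the ratio was 0.82, and with 200 kb it was 0.36 with 33 WT islands. Scaling to shared regions or to the median ratio gave 0.76 each, and chromosome 7 totals gave 0.72. Per covered kb the ratio turned to -0.24, since dKO islands covered more ground at lower depth. Chosen after seeing the data, leaving out the islands between Ins2 and Th gave 0.26, and regions in both lists alone gave 0.030. The median over shared regions was -0.12 under either of the first 2 scalings, -0.16 with chromosome 7 totals, -0.068 per covered kb and 0.12 with islands within 5 kb joined. That joining left 11 regions in both lists and 12 in dKO alone, where fewer, wider regions are its own construction. Per covered kb 1 region was higher in dKO and 0 in WT, and at a ratio of 2, 0 were higher in WT. Tspan32 was -0.17 per covered kb. Cd81 was -0.21 per covered kb, -0.31 with 50 kb upstream and -0.33 with the median scaling. The tetraspanin median turned to -0.070 per covered kb and -0.0021 with 50 kb upstream. With promoters of 2 kb, 4 members in place of 3 had a promoter island in dKO. The cause of the other shifts was not tested. Depth limits what can be called: WT islands of at least 1 kb began at 82.3 counts per kb.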

Other observations

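Another long stretch of chromosome 7 had islands in WT alone. Among the 81460 stretches between neighbouring dKO islands on the autosomes, the one with the most WT counts was chr7:83384401-85713400, a run of 2329 kb with 25 WT islands, 15687 WT counts and no dKO island. Reads outside islands were not analysed here, so whether the dKO libraries held any reads over this stretch, or whether the dKO mice carried that DNA, was not tested.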
